A study of Mus musculus with 12 samples.

Results

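The subject is a set of 8 genes, grouped as regulators of maternal RNA storage and translation, over 12 single cells of mouse embryos. They are Zar1, Ybx2, Cpeb1, Btg4, Dazl, Pabpn1l, Mos and Gtsf1. A probe was taken where the array's own gene name, or the RefSeq accession beside it, gave one of the 8 genes. That found 7 probes for 6 genes among the 41174 probes and 21631 named genes of the array. A further step, taken after the files had been seen, read older symbols in the RefSeq gene table and added 2 probes for Gtsf1, which the array names 1700006H03Rik. No probe was matched to Pabpn1l, a poly(A)-binding protein of oocytes, which was not analysed here.

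The cells were the blastomeres of 6 embryos of the CF-1 stock, split at the 2-cell stage about 36 h post coitus, with 2 cells from each embryo. Experiment 2 held embryos D, G and H, and experiment 1 held embryos D, I and L. The letter D names a different embryo in each. All embryos came from natural matings, were flushed from the oviduct and had no treatment. The labels do not say what sets cell 2 apart from cell 1. Poly(A)+ RNA was amplified in 2 rounds before hybridisation, so a transcript with a short poly(A) tail may be under-represented in every cell.

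A growing mouse oocyte makes and stores the messenger RNA that carries it through meiosis and the first cleavage, while its own transcription is off. Ybx2 and Zar1 are RNA-binding proteins of the stored particles, Cpeb1 and Dazl bind elements in the transcripts and set when they are translated, and Btg4 brings the CCR4-NOT deadenylase to transcripts that are to be degraded. Mos is a kinase whose stored RNA is translated on cue during meiosis, and Gtsf1 is a cofactor of PIWI proteins that acts against transposons in germ cells. At the 2-cell stage of the mouse most maternal RNA is being degraded while the embryo's own genome starts to be transcribed.

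The sequence around the transcription start is shown for Cpeb1, Dazl and Btg4, the 3 genes with the highest correlations over the 12 cells, and for Zar1 and Ybx2, which passed the test between experiments. For Ybx2 the first of 2 annotated starts is shown. The windows of Btg4, Cpeb1 and Zar1 lie wholly inside the gene's annotated span, so they do not hold the upstream end of that span. Each window runs from 250 bases before to 50 bases after a start in RefSeq annotation of build GRCm38.p6, written 5′ to 3′ on the gene's strand. Capitals mark matches on either strand to the E-box CANNTG, which FIGLA and other bHLH factors bind, or to the TATA box TATAAA.
Cpeb1, chr7:81454709-81455008, minus strand: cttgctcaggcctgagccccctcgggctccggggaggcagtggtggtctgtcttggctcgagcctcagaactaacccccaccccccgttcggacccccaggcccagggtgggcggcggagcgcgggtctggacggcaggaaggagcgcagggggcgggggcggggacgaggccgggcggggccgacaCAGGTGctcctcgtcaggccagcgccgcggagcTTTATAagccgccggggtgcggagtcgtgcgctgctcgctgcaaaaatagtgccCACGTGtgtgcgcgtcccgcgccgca
Dazl, chr17:50293571-50293870, minus strand: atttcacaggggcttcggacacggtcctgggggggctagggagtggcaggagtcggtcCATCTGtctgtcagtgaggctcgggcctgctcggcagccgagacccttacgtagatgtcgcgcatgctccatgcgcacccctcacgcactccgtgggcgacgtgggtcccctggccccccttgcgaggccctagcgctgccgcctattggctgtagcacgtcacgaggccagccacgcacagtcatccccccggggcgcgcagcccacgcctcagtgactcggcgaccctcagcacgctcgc
Btg4, chr9:51115751-51116050, plus strand: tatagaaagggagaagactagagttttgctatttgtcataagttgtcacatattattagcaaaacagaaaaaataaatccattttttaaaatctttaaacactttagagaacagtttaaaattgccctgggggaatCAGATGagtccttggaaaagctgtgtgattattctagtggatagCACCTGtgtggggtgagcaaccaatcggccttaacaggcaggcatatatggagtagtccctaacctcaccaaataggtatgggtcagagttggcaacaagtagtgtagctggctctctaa
Zar1, chr5:72581035-72581334, minus strand: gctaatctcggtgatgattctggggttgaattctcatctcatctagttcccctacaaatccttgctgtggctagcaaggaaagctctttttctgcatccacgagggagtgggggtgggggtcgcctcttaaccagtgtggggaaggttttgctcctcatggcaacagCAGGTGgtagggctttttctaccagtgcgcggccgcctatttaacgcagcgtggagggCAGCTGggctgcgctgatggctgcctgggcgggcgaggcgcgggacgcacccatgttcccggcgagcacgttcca
Ybx2, chr11:69935649-69935948, plus strand: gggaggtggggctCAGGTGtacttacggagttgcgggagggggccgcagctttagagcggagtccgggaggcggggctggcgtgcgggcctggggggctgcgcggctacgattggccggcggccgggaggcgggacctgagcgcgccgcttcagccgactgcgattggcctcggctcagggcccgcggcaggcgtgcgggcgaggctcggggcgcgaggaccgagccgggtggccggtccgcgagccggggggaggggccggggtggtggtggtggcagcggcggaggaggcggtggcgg
Both strands of the windows were also searched for TAATTG or TAATTA, the element bound by the oocyte factor NOBOX. These letters were in none of the 5 windows, and 12.4% of all 32851 promoter windows held them. An E-box stood in each of the 5, 2 in Zar1, Cpeb1 and Btg4 and 1 in Dazl and Ybx2, and 72.3% of all windows held one. The TATA box letters were in the Cpeb1 window alone, on the strand opposite to the gene's, 30 bases before the start, and in 13.6% of all windows. Base composition set Btg4 apart, with 39.0% G and C against 58.7% in Zar1, 68.7% in Dazl, 72.7% in Cpeb1 and 78.0% in Ybx2, where the median of all windows was 52.7%. The Gtsf1 window held none of these 3 motifs.

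Values are log2 of the probe's signal after division by the array's 75th percentile over the 5858 probes that were well above background on all 12 arrays. A value of 0 is therefore the signal at that percentile. Signals under a common floor of -4.12 were raised to it, and values at the floor have no order among them. The floor is the highest, over the arrays, of the lowest signal that an array measured well above background, so a probe can be detected on 1 array and still stand at it. Levels of different genes are not compared, since each probe binds with its own strength.

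Differences were tested with limma over 16694 probes, each of them well above background on 6 or more arrays, and p-values were adjusted over all of them by Benjamini-Hochberg, with a threshold of 0.05. Of the members, 6 genes were tested: Zar1, Ybx2, Cpeb1, Btg4, Dazl and Gtsf1. Mos, detected on 5 arrays, fell short of the filter. No member probe was saturated on any array.

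The experiments differ in more than their embryos. Experiment 2 was scanned in 1 colour, with the RNA in Cy3, and experiment 1 in 2 colours, with the RNA in Cy5, although the labels name Cy3 throughout, and no slide held cells of both. Experiment, dye, scan and slide therefore cannot be told apart. Arrays had 31.2% to 78.8% of their spots well above background in experiment 2 and 22.1% to 41.7% in experiment 1. The cells carried oocyte and early embryo RNA in both: the summed level of 9 such markers, on the linear scale, was 55.3 to 79.3 in experiment 2 and 48.5 to 89.6 in experiment 1. The summed markers of the 2-cell stage and of 2 other cell types moved with the experiment. The summed level of 5 markers of the 2-cell stage was 6.75 to 12.7 in experiment 2 and 3.31 to 5.25 in experiment 1, and 3 of the 5 passed the test as higher in experiment 2. Of the rest, Zscan4c had a lower log2 mean in experiment 2, -1.86 against -1.09, and Usp17la was nearly level, 0.35 against 0.24. The summed level of 6 stroma markers was 0.344 to 0.776 in experiment 2 and 10.6 to 58.1 in experiment 1, and that of 6 oviduct epithelium markers 0.344 to 1.68 in experiment 2 and 6.27 to 47.9 in experiment 1. All 6 stroma markers and 3 of the 6 oviduct markers passed as lower in experiment 2. The oviduct markers Epcam and Pax8 had higher log2 means in experiment 2 without passing. These were -2.97 against -3.59 for Epcam and -3.09 against -3.64 for Pax8. Of 12 cumulus and granulosa markers, Tnfaip6 was never well above background, and the summed level was 0.698 to 1.59 in experiment 2 and 0.688 to 1.24 in experiment 1. Each marker at the floor adds 0.0574 to such a sum. The lowest stroma and oviduct sums of experiment 2, and the lowest cumulus sum of experiment 1, were made of floor values alone. Per array, 2 to 11 of the 12 cumulus markers were well above background in experiment 2 and 0 to 4 in experiment 1.

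**Figure D1:**
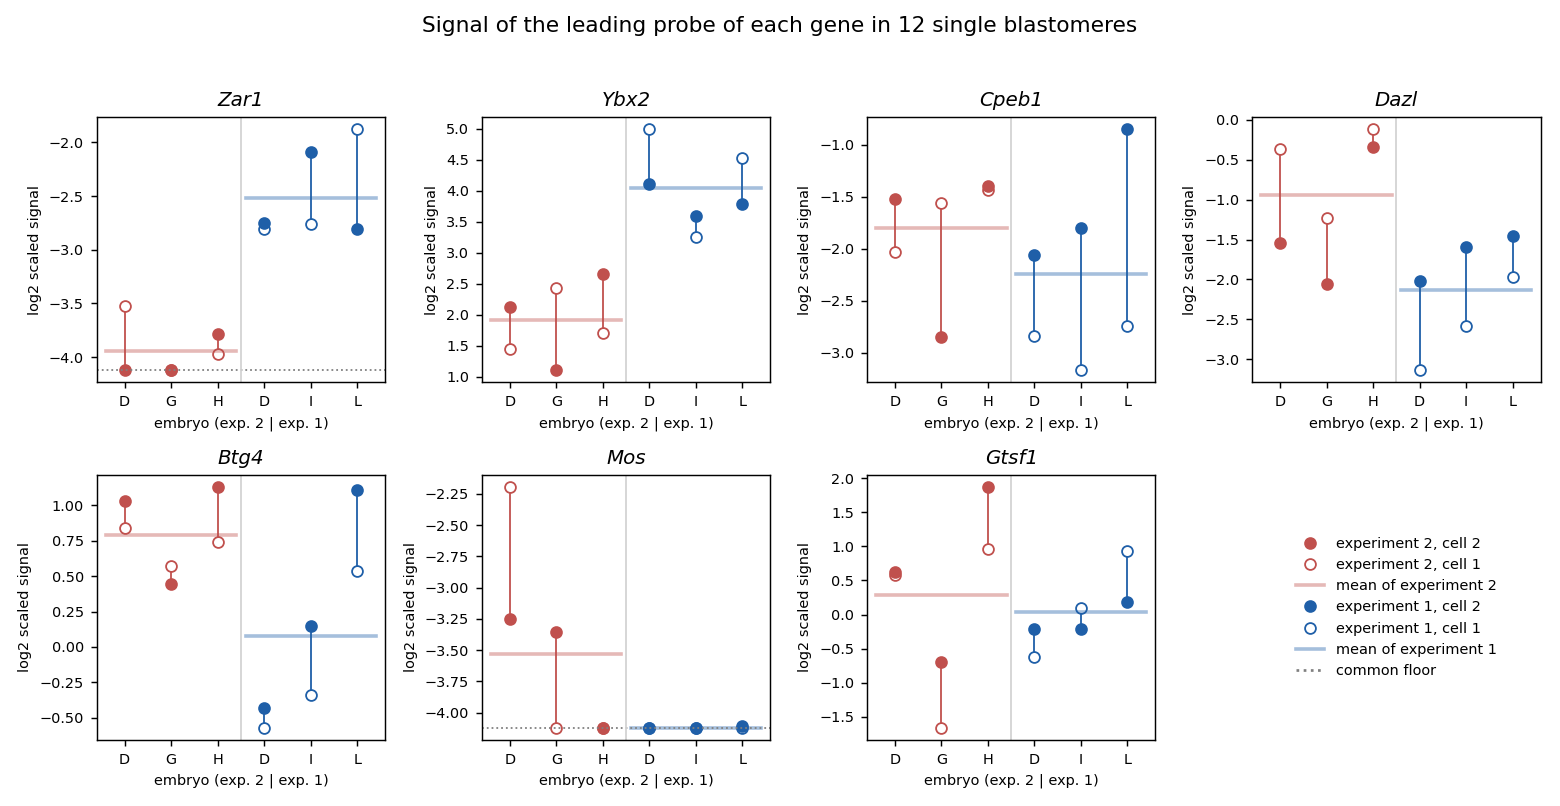
Each panel plots the log2 scaled signal of 1 gene's leading probe (y axis) in the cells of each embryo (x axis, experiment 2 left of experiment 1); filled points are cell 2, open points cell 1, lines join sisters and pale bars are the means of the 6 cells. Zar1 and Ybx2 sit lower in all cells of experiment 2 than in any cell of experiment 1, and Mos is at the floor (dotted) in 5 of the 6 cells of experiment 1.

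Ybx2, the Y-box protein that coats and stabilises stored messenger RNA in germ cells (chr11:69935805-69941604), was lower in experiment 2. In experiment 2 its log2 values were 2.13 in cell 2 and 1.44 in cell 1 of embryo D, 1.10 in cell 2 and 2.42 in cell 1 of embryo G, and 2.65 in cell 2 and 1.70 in cell 1 of embryo H. In experiment 1 they were 4.11 in cell 2 and 4.99 in cell 1 of embryo D, 3.58 in cell 2 and 3.26 in cell 1 of embryo I, and 3.78 in cell 2 and 4.52 in cell 1 of embryo L. No cell of experiment 2 reached the lowest cell of experiment 1, embryo I cell 1. Ybx2 averaged 1.91 ± 0.60 in experiment 2 and 4.04 ± 0.64 in experiment 1 (SD, n = 6 cells each). The difference, experiment 2 minus experiment 1, was -2.13 ± 0.43 on the log2 scale (SE; adjusted p = 0.0109 by limma, with the embryo as a random block), or 4.39-fold lower.

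Zar1 (chr5:72577113-72581361), a zygote arrest protein that binds RNA in the oocyte and is needed for the egg to pass the first cleavage, was also lower in experiment 2. In experiment 2 it stood at -4.12, the floor, in cell 2 of embryo D and in both cells of embryo G, and at -3.52 in cell 1 of embryo D, -3.78 in cell 2 of embryo H and -3.97 in cell 1 of embryo H. In experiment 1 its log2 values were -2.75 in cell 2 and -2.81 in cell 1 of embryo D, -2.09 in cell 2 and -2.76 in cell 1 of embryo I, and -2.81 in cell 2 and -1.88 in cell 1 of embryo L. The probe was well above background on all 12 arrays, those with floor values included, and the experiments did not overlap. The means were -3.94 ± 0.25 in experiment 2 and -2.52 ± 0.42 in experiment 1 (SD, n = 6 cells each), a difference of -1.43 ± 0.26 (SE; adjusted p = 0.00701 by limma). That is 2.69-fold lower on the floored scale. With a lower floor the difference grew to -1.98, its error also grew, and the adjusted p was 0.0762.

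By their leading probes, the brighter one where a gene had 2, these 2 of the 6 tested members passed between the experiments, both lower in experiment 2, where 8.1% of all tested probes passed and 4.15% passed as lower in experiment 2. Each of the 6 leading probes was well above background on all 12 arrays. In a fit of the 5858 probes of that kind alone, 22.8% passed, Zar1 and Ybx2 again among them. A full separation of the cells, with experiment 2 below experiment 1, was seen in 3.97% of all tested probes. Of all tested probes, those that passed split into 660 higher and 693 lower in experiment 2, and this balance moved with the scaling, to 54 higher and 373 lower under normexp and 22 higher and 151 lower with the 75th percentile of all probes. The median difference over all tested probes was 0.19, against which Zar1 stood at -1.62 and Ybx2 at -2.33. Under normexp background correction the median of all probes was -0.76, and Zar1 and Ybx2 then stood at -0.95 and -1.05 relative to it. Both stayed lower in experiment 2 in every processing tried, but both calls were lost with the 75th percentile of all probes, with a floor per array and with the deposited values, at adjusted p of 0.0599 to 0.448. Ybx2 also missed the threshold under normexp (adjusted p = 0.0667). With the slide as a random block the differences were -1.38 for Zar1 (adjusted p = 0.0130) and -2.21 for Ybx2 (adjusted p = 0.0173). The stroma markers and the sum of the oviduct markers, lower in experiment 2 as well, also differed between the experiments. So did the sum of the 2-cell markers, higher in experiment 2. The part of these markers in the difference was not tested. In single blastomeres, as in bulk samples, a lower share of the signal does not tell fewer copies from more RNA of other genes.

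**Figure D2:**
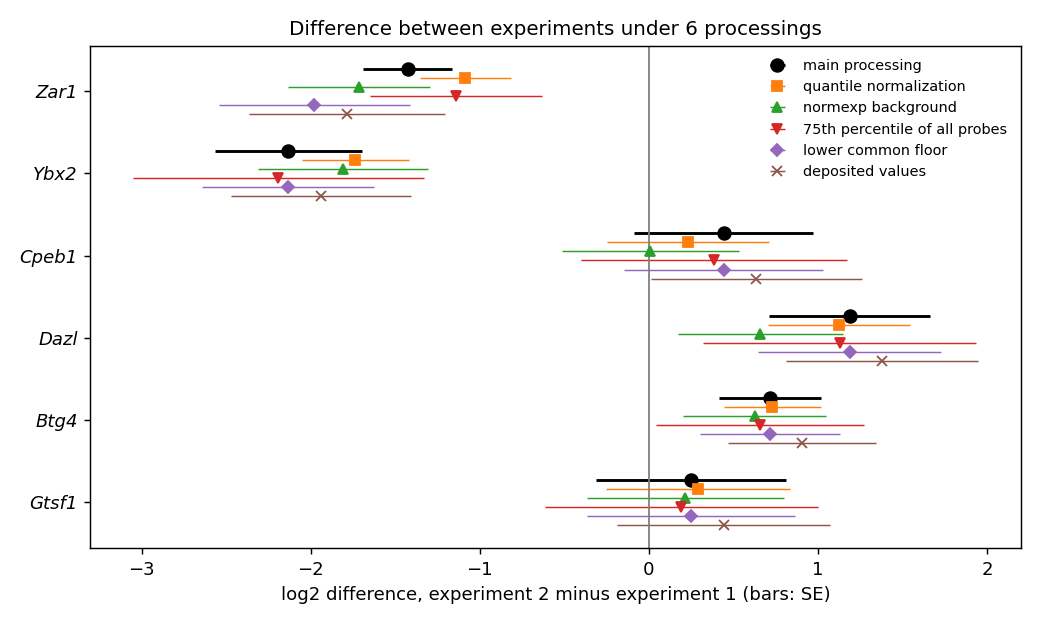
Points show the log2 difference, experiment 2 minus experiment 1 (x axis), for the leading probe of each tested gene (y axis) under 6 processings, with bars of 1 SE. Zar1 and Ybx2 lie left of 0 in all 6, and the other tested genes, Dazl, Btg4, Gtsf1 and Cpeb1, lie right of 0 in all 6 without passing the test. Under normexp Cpeb1 is right of 0 by only 0.0092.

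Cpeb1 (chr7:81347026-81458001) binds the cytoplasmic polyadenylation element of dormant transcripts and switches between holding them silent and lengthening their tails. In experiment 2 its log2 values were -1.52 in cell 2 and -2.03 in cell 1 of embryo D, -2.85 in cell 2 and -1.56 in cell 1 of embryo G, and -1.40 in cell 2 and -1.43 in cell 1 of embryo H. In experiment 1 they were -2.06 in cell 2 and -2.84 in cell 1 of embryo D, -1.80 in cell 2 and -3.17 in cell 1 of embryo I, and -0.85 in cell 2 and -2.74 in cell 1 of embryo L. The brightest and the dimmest cell both belonged to experiment 1, whose range held all 6 cells of experiment 2. The difference between experiments was 0.44 ± 0.53 (SE; adjusted p = 0.672 by limma). Cell 2 was above cell 1 in 5 of 6 embryos, and in embryo L of experiment 1 by 3.70-fold.

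Dazl (chr17:50279393-50293620), an RNA-binding protein that activates translation of oocyte transcripts together with Cpeb1, had 2 probes. On the brighter one, experiment 2 read -1.54 in cell 2 and -0.37 in cell 1 of embryo D, -2.05 in cell 2 and -1.23 in cell 1 of embryo G, and -0.33 in cell 2 and -0.12 in cell 1 of embryo H. Experiment 1 read -2.02 in cell 2 and -3.14 in cell 1 of embryo D, -1.60 in cell 2 and -2.59 in cell 1 of embryo I, and -1.45 in cell 2 and -1.97 in cell 1 of embryo L. Both cells of embryo H and 1 cell each of D and G in experiment 2 were above every cell of experiment 1, while the dimmer cells of D and G lay within its range. The difference of 1.19 ± 0.47 did not pass (SE; adjusted p = 0.179 by limma).

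The second Dazl probe was well above background on 6 arrays of experiment 2 and on 1 of experiment 1. It read -2.37 in cell 2 and -2.96 in cell 1 of embryo D, -2.66 in cell 2 and -4.12 in cell 1 of embryo G, and -3.29 in cell 2 and -3.38 in cell 1 of embryo H of experiment 2, and it was at the floor in all 6 cells of experiment 1. It too was higher in experiment 2 without passing, by 0.99 ± 0.32 (SE; adjusted p = 0.0864 by limma). That value depends on the floor: with the lower common floor the fitted difference was 3.96 (adjusted p = 0.0319), with the deposited values it passed at an adjusted p of 0.0483, and without cell 1 of embryo G of experiment 2 it was 1.21 (adjusted p = 0.00762). The probes did not follow each other over the cells (Pearson's r = -0.29 over 12 cells, centred within experiment), and the other results for Dazl rest on the brighter one.

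Btg4 (chr9:51102147-51119924), the adaptor that leads the CCR4-NOT deadenylase to maternal transcripts, had the smallest sister differences of the 6 tested members. In experiment 2 its log2 values were 1.03 in cell 2 and 0.84 in cell 1 of embryo D, 0.44 in cell 2 and 0.57 in cell 1 of embryo G, and 1.13 in cell 2 and 0.74 in cell 1 of embryo H. In experiment 1 they were -0.43 in cell 2 and -0.57 in cell 1 of embryo D, 0.15 in cell 2 and -0.34 in cell 1 of embryo I, and 1.11 in cell 2 and 0.54 in cell 1 of embryo L. Embryos D and I of experiment 1 lay below all cells of experiment 2, and embryo L within them. The difference between experiments was 0.72 ± 0.30 (SE; adjusted p = 0.214 by limma).

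Mos (chr4:3870658-3872105), the kinase upstream of MAP kinase that holds the egg in metaphase of the second meiotic division, was near the limit of detection. Its probe was well above background on 4 arrays of experiment 2 and on 1 of experiment 1. In experiment 2 it read -3.25 in cell 2 and -2.19 in cell 1 of embryo D and -3.35 in cell 2 of embryo G, with the other 3 cells at the floor. In experiment 1 cell 2 of embryo L read -4.11, and the other 5 cells were at the floor of -4.12. No test was made.

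Gtsf1 (chr15:103402458-103430445) had the widest range of embryo means among the tested members, in experiment 2, on 2 probes that followed each other closely (Pearson's r = 0.951 over 12 cells, centred within experiment). On the brighter probe, experiment 2 read 0.62 in cell 2 and 0.58 in cell 1 of embryo D, -0.69 in cell 2 and -1.66 in cell 1 of embryo G, and 1.87 in cell 2 and 0.97 in cell 1 of embryo H. Experiment 1 read -0.21 in cell 2 and -0.62 in cell 1 of embryo D, -0.21 in cell 2 and 0.09 in cell 1 of embryo I, and 0.19 in cell 2 and 0.93 in cell 1 of embryo L. In experiment 2 the 3 embryos stood apart without overlap, as they did, in any order, in 7.19% of all tested probes. H was above D and D above G, and H exceeded G by 2.60 on the log2 scale, or 6.06-fold. On the dimmer probe the same order held and H exceeded G by 2.04. The difference between experiments was 0.25 ± 0.56 on the brighter probe and 0.90 ± 0.53 on the dimmer (SE; adjusted p = 0.824 and 0.402 by limma).

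Whether embryos of the same experiment differed was tested with limma's moderated F statistic, on 2 cells per embryo. None of the 6 tested members passed, where 1.4% of all tested probes passed. Gtsf1 and Btg4 had unadjusted p under 0.05, as did 29.8% of all tested probes. Gtsf1 had an unadjusted p of 0.00344 and an adjusted p of 0.0702, and its dimmer probe an adjusted p of 0.149. Btg4 had an unadjusted p of 0.00945 and an adjusted p of 0.0934. In experiment 1, Btg4 was highest in embryo L, which exceeded embryo D by 1.33 on the log2 scale. The other 4 had adjusted p of 0.331 for Dazl, 0.558 for Ybx2, 0.770 for Zar1 and 0.791 for Cpeb1. Embryos on the same slide could be compared in 2 cases, G and H in experiment 2 and I and L in experiment 1. Within these slides Gtsf1 had an adjusted p of 0.242 and Btg4 of 0.416.

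By embryo means, the members mostly shared an order, and in experiment 2 it was not the commonest order among all probes. Embryo H of experiment 2 was the highest of its 3 embryos for 5 of the 6 members, all but Zar1, and embryo G was the lowest for all 6. Some of these places were near ties: Btg4 averaged 0.936 in H and 0.935 in D, and Ybx2 averaged 1.76 in G and 1.78 in D. Zar1 was at the floor in both cells of G, and the dimmer Dazl probe was highest in D. Over the tested probes with an order, H was highest in 17.5% and lowest in 54.6%, G was lowest in 32.1%, and embryo D was highest in 65.1%. These shares include probes not detected on some arrays, while the leading probes of the 6 members were well above background on all 12. The arrays of embryo D of experiment 2 had 78.8% and 64.3% of spots well above background, against 31.2% to 52.8% in G and H. The part of detection in these orders was not tested. In experiment 1, embryo L was highest for 5 of the 6 members, all but Ybx2, and in 53.8% of probes, and embryo D was lowest for 4 of the 6 and in 36.5% of probes. The members do not vary independently of each other, so these counts carry no test.

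Cell 2 was then set against cell 1 within embryos. No member passed, and 0.0% of all tested probes did, with 737 probes at an unadjusted p under 0.05 in the same limma fit. None of the 6 members was among these 737 by its leading probe. The nearest was Btg4, with cell 2 minus cell 1 at 0.27 ± 0.12 (SE; unadjusted p = 0.0631, adjusted p = 0.674 by limma), higher in cell 2 in 5 of 6 embryos. Cpeb1 stood at 0.55 ± 0.41, Gtsf1 at 0.21 ± 0.26, Dazl at 0.07 ± 0.35, Zar1 at -0.10 ± 0.22 and Ybx2 at -0.16 ± 0.35 (SE, n = 6 embryos). Leaving out 1 cell, and so its embryo, moved Cpeb1 to between 0.28, without embryo L of experiment 1, and 0.92, without embryo G of experiment 2, and Gtsf1 to between 0.064, without embryo G of experiment 2, and 0.41, without embryo L of experiment 1. The median over all tested probes was 0.11.

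Dazl had opposite sister differences in the experiments. Cell 2 minus cell 1 was -1.17, -0.82 and -0.22 in embryos D, G and H of experiment 2, and 1.12, 0.99 and 0.52 in embryos D, I and L of experiment 1. All 3 embryos moved one way in experiment 2 and the other way in experiment 1, as did 1.59% of all tested probes in either sense. The difference between the experiments' cell contrasts was -1.62 ± 0.33 (SE; unadjusted p = 0.00366, adjusted p = 0.912 by limma), and 0.0% of all tested probes passed in that test, with 879 at an unadjusted p under 0.05. Cpeb1 had a like difference of -1.59 ± 0.56 (SE; unadjusted p = 0.0331, adjusted p = 0.931 by limma). Its sister differences were 0.51, -1.29 and 0.03 in embryos D, G and H of experiment 2, and 0.78, 1.37 and 1.89 in embryos D, I and L of experiment 1. Since the labels do not define the cell numbers, a sign has no meaning shared between embryos. The dimmer Dazl probe, at the floor throughout experiment 1, had cell 2 above cell 1 in all 3 embryos of experiment 2, opposite to the brighter one.

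**Figure D3:**
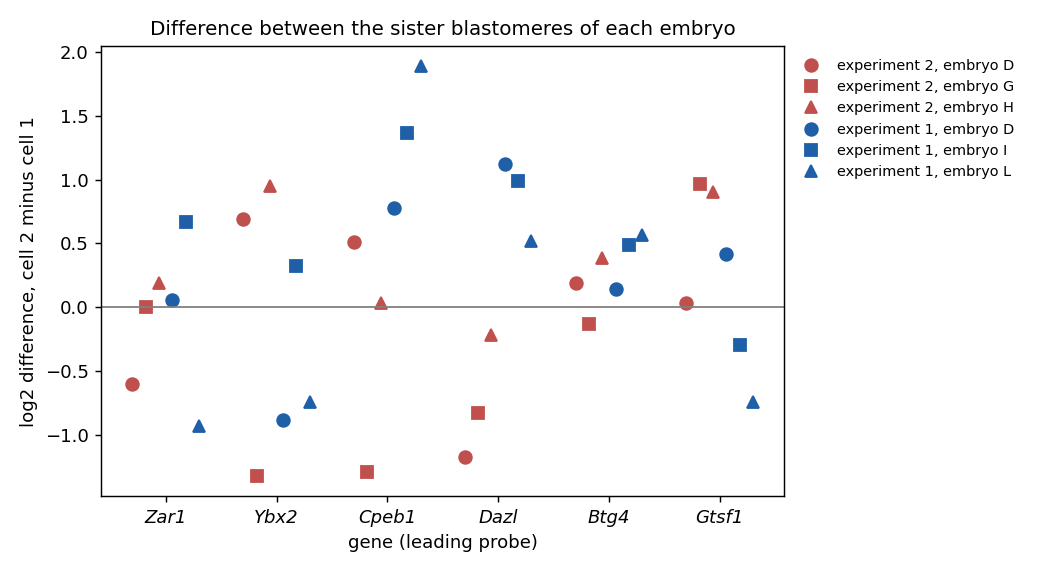
Points show the log2 difference, cell 2 minus cell 1 (y axis), of each gene's leading probe (x axis) in the 6 embryos, with colour for the experiment and shape for the embryo. Btg4 stays between -0.13 and 0.57, Cpeb1 runs from -1.29 to 1.89, and Dazl is below 0 in experiment 2 and above 0 in experiment 1.

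The size of sister differences separated the members. The root mean square of the difference over the 6 embryos was 0.362 for Btg4, 0.535 for Zar1, 0.655 for Gtsf1, 0.871 for Ybx2, 0.876 for Dazl and 1.15 for Cpeb1, where the median over all tested probes was 0.657. Bright probes vary less, so each variance was set against a smooth trend over probes of the same mean level. Ybx2 then stood out: its sister variance was 5.03 times the trend, and 98.6% of tested probes had a lower ratio. Cpeb1 was at 1.70 times the trend, Gtsf1 at 1.29 and Dazl at 1.18. Btg4 was at 0.434 times the trend and Zar1 at 0.328, but 3 floor values hold the Zar1 figure down. These ratios describe 6 pairs and were not tested.

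Ybx2 was lower on arrays with more spots detected. The correlation of its log2 value with the share of spots well above background was -0.58 over the 12 cells, centred within experiment, and -0.59 and -0.77 within experiments 2 and 1 (Pearson's r; 6 cells each). Spearman's rho was -0.60, and r was -0.54 without the 2 cells farthest from the median share. The other 5 tested members had r of 0.02 to 0.23 over 12 cells by their leading probes. Within experiments larger values were seen in some of them too, 0.69 for Dazl, 0.59 for Cpeb1 and 0.43 for Btg4 in experiment 1 and 0.49 for Zar1 in experiment 2, and the dimmer Dazl probe had 0.66 over 12 cells. Negative values were seen too, -0.33 for Cpeb1 and -0.002 for Dazl in experiment 2 and -0.23 for Zar1 in experiment 1. By leading probes, Ybx2 alone was negative in both experiments. Without the 2 farthest cells, r was -0.33 for Zar1, -0.31 for Gtsf1 and -0.11 for Dazl, and 0.22 for Cpeb1 and 0.21 for Btg4. The cells share embryos and slides, and both values come from the same array, so no test was made.

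**Figure D4:**
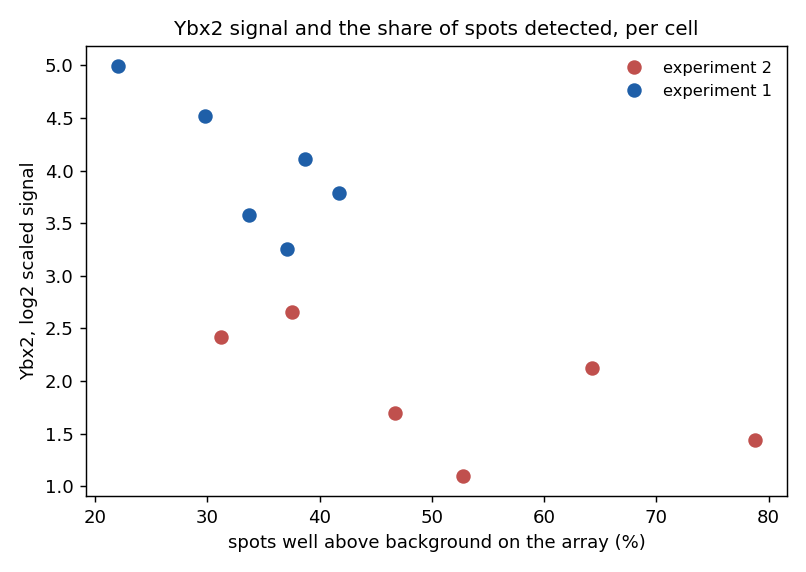
Each point is a cell, with the percent of spots well above background on its array (x axis) and the log2 scaled signal of Ybx2 (y axis). Every cell of experiment 2 lies below every cell of experiment 1, and within each experiment Ybx2 tends to be lower where more spots were detected.

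The 3 highest correlations between members joined Cpeb1, Dazl and Btg4. With each experiment centred on its own mean, Pearson's r over 12 cells was 0.68 for Cpeb1 with Dazl, 0.67 for Cpeb1 with Btg4 and 0.59 for Btg4 with Dazl. Within experiments 2 and 1 it was 0.61 and 0.80, 0.66 and 0.69, and 0.49 and 0.77 for the same pairs. Without the 2 cells farthest from the median of the first gene, the 3 values were 0.52, 0.35 and 0.41, so part of the relation rests on those cells. Gtsf1 had an r of 0.56 with Dazl and of 0.51 with Btg4. The pair Btg4 and Gtsf1 reached 0.82 in experiment 2 and 0.63 in experiment 1, and 0.64 without the 2 farthest cells, above the 3 pairs on that check. Zar1 with Dazl, at 0.49 over 12 cells, had 0.53 there. The order of the pairs therefore depends on the measure. Ybx2 went with none of them, with r between -0.07 and 0.16, although within experiment 2 it had an r of 0.81 with Cpeb1 and 0.59 with Btg4. Over the 15 pairs of members the median r was 0.33. Cells of an embryo and arrays of a slide are shared between points, so these are descriptions.

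**Figure D5:**
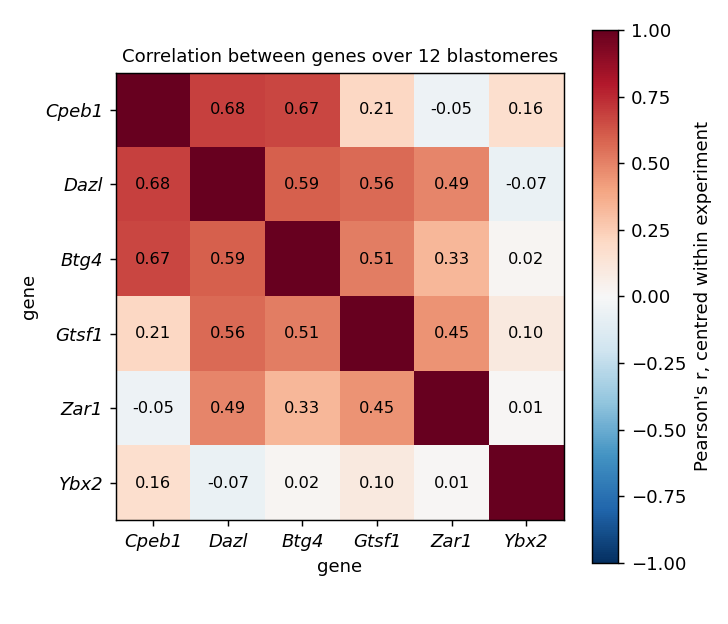
Each square gives Pearson's r between the leading probes of 2 genes (rows and columns) over 12 blastomeres, after each experiment was centred on its mean, with red above 0 and blue below. Cpeb1, Dazl and Btg4 have r of 0.59 to 0.68 with each other, Gtsf1 has 0.56 with Dazl and 0.51 with Btg4, and Ybx2 is near 0 with all others.

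The genes whose centred signal was most like each member's were found over the same 12 cells. Only named genes with a probe well above background on all 12 arrays were searched. For Btg4 they were Pigf (r = 0.961), Pramel48 (0.954) and Osbpl9 (0.951), the closest matches of the set. Dazl was followed by Tusc3 (0.937), Rab14 (0.931) and Tiparp (0.921), and Gtsf1 by Jak1 (0.931), Actr3 (0.891) and Rtl8b (0.889). Cpeb1 had Pnpla8 (0.902), Gps1 (0.883) and Ube2k (0.846). Ybx2 had Necab2 (0.890), Zc3h7b (0.888) and Atxn2l (0.878), and Zar1 had Bicd2 (0.853), Exo1 (0.829) and Rab32 (0.821). A best match among so many genes over 12 cells is high by selection, and of these 18 genes 3 to 10 returned when 1 embryo was left out.

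Other genes of the same pathways were set beside the members between the experiments. Of 35 tested partners in storage and translation, 2 passed, beside the 8.1% of all tested probes that did. Ybx1, the somatic relative of Ybx2, was higher in experiment 2, at 3.56 ± 0.11 in experiment 2 and 2.80 ± 0.20 in experiment 1 (SD, n = 6 each), a difference of 0.76 ± 0.14 (SE; adjusted p = 0.00741 by limma). Tob2, a relative of Btg4 that also binds the CCR4-NOT deadenylase, was lower, at -1.62 ± 0.76 in experiment 2 and 0.31 ± 0.79 in experiment 1 (SD, n = 6 each; adjusted p = 0.0280 by limma). The median difference of the 35 was 0.20 and that of the 6 tested members 0.35, beside 0.19 over all tested probes. Between embryos, where 1.4% of all tested probes passed, 1 of the 35 did, Cnot8, a catalytic subunit of the CCR4-NOT deadenylase (adjusted p = 0.0461 by limma).

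Of 14 tested genes of the Mos and MAP kinase pathway, 3 passed between the experiments, where 8.1% of all tested probes did. Ccnb1 and Cdk1, the cyclin and kinase of maturation promoting factor, were higher in experiment 2 by 0.97 ± 0.19 and 1.16 ± 0.26 (SE; adjusted p = 0.00987 and 0.0164 by limma), with Cdk1 well above background on 3 of 6 arrays of experiment 1. Mapk3, the MAP kinase ERK1, was lower in experiment 2 by 3.36-fold (adjusted p = 0.0313 by limma). Of 12 tested piRNA partners of Gtsf1, 3 passed in the same comparison. The helicase Ddx4 and the Tudor protein Tdrkh were higher in experiment 2, by 3.28 ± 0.37 and 2.21 ± 0.48 (SE; adjusted p = 0.000416 and 0.0156 by limma), while Piwil1 was lower, at -1.68 ± 0.36 (SE; adjusted p = 0.0133 by limma). Cdk1, Tdrkh and Ddx4 averaged -4.12, -3.85 and -3.49 in experiment 1, and Piwil1 -3.81 in experiment 2, at or near the floor of -4.12. The sizes of these 4 differences may therefore depend on the floor. Pld6, a mitochondrial piRNA factor, was the 1 of the 12 piRNA partners that passed between embryos (adjusted p = 0.0456 by limma), where 1.4% of all tested probes passed. It averaged -3.71 in experiment 2 and -3.68 in experiment 1, near the floor. With the cell number added as a block, 0 probes passed between embryos, so the calls of Pld6 and Cnot8 were lost there. No gene of these 3 lists passed between cell 2 and cell 1.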

How the data were processed

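Per the file headers, the authors extracted the deposited intensity values with Agilent Feature Extraction 9.1.3.1 from scans of 12 arrays. Experiment 1 was scanned in 2 channels, and its Cy5 channel was used, since 68 to 160 spots per array, and none of a member, were well above background in Cy3. The number of arrays limits the precision. The deposited value table held the same signals divided by 1 constant per array, with a low floor, and served as an alternative. Set against the scanner signals, over 99.7% of its values matched within 5 percent on each array, so it is linear and not centred, with array medians of 0.01 to 0.142. Its values were taken to log2 after the authors' floor.

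Outlier and control spots were left out, spots of a probe were averaged, and signals were scaled, floored and logged as described. Of 41174 probes, 78 with missing values were dropped. Names came from RefSeq accessions for 22951 probes, the file's names for 6659 found in the RefSeq table and 2331 not found in it, and older symbols for 3109, and 6124 had none. Fits used limma 3.58.1 in R 4.3.3 and were tested on simulated data. The embryo test was a moderated F over within-experiment contrasts, the cell test had the embryo as a block, and the experiment test had the embryo as a random block. The labels do not say that cells of an experiment come from separate collections, so p-values measure the spread between these cells.

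All members were named with every probe. Up to 4 passing genes per wider list and comparison, by adjusted p, and the 3 genes most like each member were also named. A gene outside the members is given by its brightest probe. The members and lists were chosen with earlier results of these data known. Alternatives were normexp background correction with an offset of 50, quantile normalization, another percentile, 2 other floors, the deposited values, 2 other filters, blocks for slide and cell number, and each cell left out in turn.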

Additional observations from a re-analysis of the deposited data

Results flagged for a closer look

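Mos in cell 2 of embryo L of experiment 1 read -4.11 and stood apart from the other 5 cells of that experiment, all at the floor of -4.12. The gap is large only against a range of 0 among the others, and the probe was well above background on this array. It was the only 1 of 17 sets of 6 cells, a member probe in an experiment, in which the highest or lowest cell lay far from the rest, and chance flags about 1 in 20. Its signal is at the limit of detection.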

How the results depend on the processing

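Counts of members are by the leading probe. Of the 6 members tested, none passed between cell 2 and cell 1, and none differed in that contrast between experiments, in any alternative run. Between embryos, where none passed, 1 member passed with normexp and 1 with a floor per array, Gtsf1 both times (adjusted p = 0.00933 and 0.0452 by limma), where 40.1% and 26.1% of all probes passed. Leaving out single cells gave 0 to 2 members. Gtsf1 and Btg4 passed without cell 1 of embryo L of experiment 1 (adjusted p = 0.0378 and 0.0376 by limma), where 23.2% of all probes passed, and Gtsf1 alone without cell 2 of that embryo (0.0475) or cell 2 of embryo G of experiment 2 (0.0460), where 11.0% and 8.77% passed. The dimmer Dazl probe passed with the 75th percentile of all probes (adjusted p = 0.0384 by limma; 1.99% of probes). The count over all probes was less stable: 234 passed, against 0 to 3875 with a cell left out and 0 to 6698 in the other alternatives. Between experiments 2 members passed. With normexp 1 passed, Zar1, and with a lower common floor 1 passed, Ybx2. With the 75th percentile of all probes, a floor per array or the deposited values 0 passed, with 173, 368 and 702 probes passing and 2, 2 and 3 members at an unadjusted p under 0.05 by limma. No single cell left out changed that count of 2. The dimmer Dazl probe, not in these counts, passed with the lower common floor, with the deposited values and without cell 1 of embryo G of experiment 2. Over all probes 1353 passed, against 796 to 1561 with a cell left out and 173 to 1741 in the other alternatives. The cause of these changes was not tested.

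Signs turned only for differences that did not pass. Cell 2 minus cell 1 of Zar1 was 0.035 with normexp, 0.065 with a lower floor or a floor per array and 0.10 with deposited values. That of Dazl was -0.090 with normexp and -0.055 with quantile normalization. With the 75th percentile of all probes it was -0.44 for Dazl, -0.29 for Gtsf1 and -0.23 for Btg4. The difference of the cell contrast for Zar1 was 0.39 with normexp, 0.40 with quantile normalization, 0.66 with the 75th percentile of all probes, 0.27 with a lower floor or a floor per array and 0.22 with deposited values. With each cell left out in turn, cell 2 minus cell 1 ranged from -0.26 to 0.063 for Zar1, -0.39 to 0.070 for Ybx2 and -0.14 to 0.32 for Dazl, the difference of the cell contrast for Zar1 from -0.50 to 0.30, and the difference between experiments for Gtsf1 from -0.012 to 0.54.

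The cell numbers do not pair the samples: sister differences of different embryos correlated at -0.08 to 0.26, with 3 of the 15 pairs of embryos over 0.1. With the cell number as a replicate block, 0 members passed between embryos, with 0 probes passing and 5409 at an unadjusted p under 0.05, and 2 passed between experiments, with 1192 probes. Without the block for embryo, 0 members passed between cell 2 and cell 1. The sister spread of each member and the median correlation between members, 0.27 to 0.47, moved in every alternative run by less than 1 SD, taken over the sizes of the 6 sister differences (0.19 to 0.67) and over the 15 pairs of members (0.27).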
